A study of Cyprinus carpio with 2 samples.

Results

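The enzymes that attach ubiquitin to proteins and remove it again were compared between the testis and the ovary of juvenile common carp (Cyprinus carpio), both still immature. Members were chosen by a rule on names, set with earlier results of these data known. They are all unigenes (numbered transcript units) whose first gene symbol begins with ube2, uba and a digit, usp and a digit, uchl, otud or otub. That rule took 146 unigenes under 65 symbols, of 22634 unigenes analysed. All 146 have a row in the expression table, and 0 come from the authors' testis list alone. RNA sequencing was done on 1 testis library and 1 ovary library from fish at 110 to 130 days post hatch, and the labels give neither the number of fish behind a library nor a strain or treatment.

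Ubiquitin is a small protein that is joined to other proteins in 3 steps. An activating enzyme (E1) charges it, a conjugating enzyme (E2) carries it, and a ligase directs it to a target, often marking that target for the proteasome. Deubiquitinating enzymes cut it off, and those studied here belong to the ubiquitin-specific proteases (USP), the ubiquitin C-terminal hydrolases (UCH) and the ovarian tumour (OTU) domain proteases. In gonads these enzymes are known for driving germ cells through meiosis, for the turnover of maternal proteins in eggs and for remodelling the histones of male germ cells. Not every member fits the label by function. The symbol of 3 unigenes, usp6nl, is that of a Rab GTPase-activating protein with no protease activity, USP39 has no protease activity either, and some enzymes carry relatives of ubiquitin, as said at each.

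The 22634 unigenes held 1926860 testis reads and 4311799 ovary reads, taking each step of the deposited values as 1 read. The members held 20289 testis and 30411 ovary reads, with a median of 105.5 testis and 118 ovary reads per unigene, and 19 members had under 20 reads in all. No unigene is listed at 0. The value columns do not name a tissue. Column B was taken as testis and column A as ovary from the titles of the authors' lists, so an error there would exchange every direction below. Each tissue has 1 library, so the differences were not checked in replicates and were not tested. Intervals at 95% are exact and reflect counting error only. Markers of other cell types also differed between the libraries. The 23 unigenes of 6 oocyte genes held 12440 testis and 216131 ovary reads, and 4 unigenes of 4 testis somatic genes held 2106 testis and 30 ovary reads. Of 5 germ cell unigenes (1770 testis and 3905 ovary reads), 1 passed 4-fold toward testis and 2 toward ovary. Of 10 leukocyte unigenes (566 testis and 2989 ovary reads), 5 passed toward testis and 2 toward ovary. Some of these markers come from the authors' testis list alone, so their direction was fixed by that choice. They are cldn11a (685 testis and 9 ovary reads) and wt1a (195 and 2) of the testis somatic genes. The others are sycp1 (183 and 1) of the germ cell genes and lyz (222 and 1) of the leukocyte genes. The counts were 48 testis and 983 ovary reads for 9 muscle unigenes, 37 testis and 623 ovary reads for 7 unigenes of liver, pancreas and gut, and 8 testis and 5 ovary reads for 3 erythrocyte unigenes. Those 3 are all of epb41b, as the other erythrocyte genes sought (hbaa1, hbba1, alas2 and slc4a1) were not found by name. The part of all these cell types in the results was not tested. In whole gonads, fewer cells of a type and less RNA per cell cannot be told apart.

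Each unigene was given a score. It is the log2 ratio of the testis value to the ovary value, each with 1 deposited unit added, minus the median ratio of all unigenes. A score above 0 means relatively more in testis. As deposited, ovary exceeded testis by 1.77-fold at the median, and all scores and folds below are relative to it unless stated. Scores and folds of reads summed over the unigenes of a symbol are relative to the median of symbol sums instead. The transcript lengths were not analysed, so levels are not compared between genes.

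The enzymes lay closer to the median than unigenes in general. Scores of all 146 members had an interquartile range of 1.39, against 2.17 for all unigenes. A floor of 5 units in whichever library was higher left 143 members. Among the 143, testis was at least 4-fold higher for 13 (9.09%), against 13.8% of all unigenes, and ovary at least 4-fold higher for 7 (4.90%), against 11.2%. Members hold more reads than most unigenes, and the share far apart moved with the number of reads. Toward testis, 22.6% of members passed 4-fold under 50 reads, against 20.3% of all unigenes, and 15.6% from 50 to under 200 reads, against 13.2%. From 200 to under 500 reads it was 2.27%, against 7.45%, and from 500 reads on 0 of 36, against 4.30%. The lower share toward testis is thus not seen among members with few reads. Toward ovary the member share was the lower in all 4 classes, with 3.23% against 6.70%, 0 of 32 against 10.2%, 4.55% against 12.4% and 11.1% against 26.3%. The median score was 0.11, against -0.02 for all unigenes past the same floor. As deposited, 7 members passed 4-fold toward testis, against 6.14% of all unigenes, and 20 toward ovary, against 23.2%. The 95% interval lay wholly on the testis side of the median for 46 of the 146 members (31.5%, against 27.5% of all unigenes) and wholly on the ovary side for 49 (33.6%, against 30.2%).

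**Figure D1:**
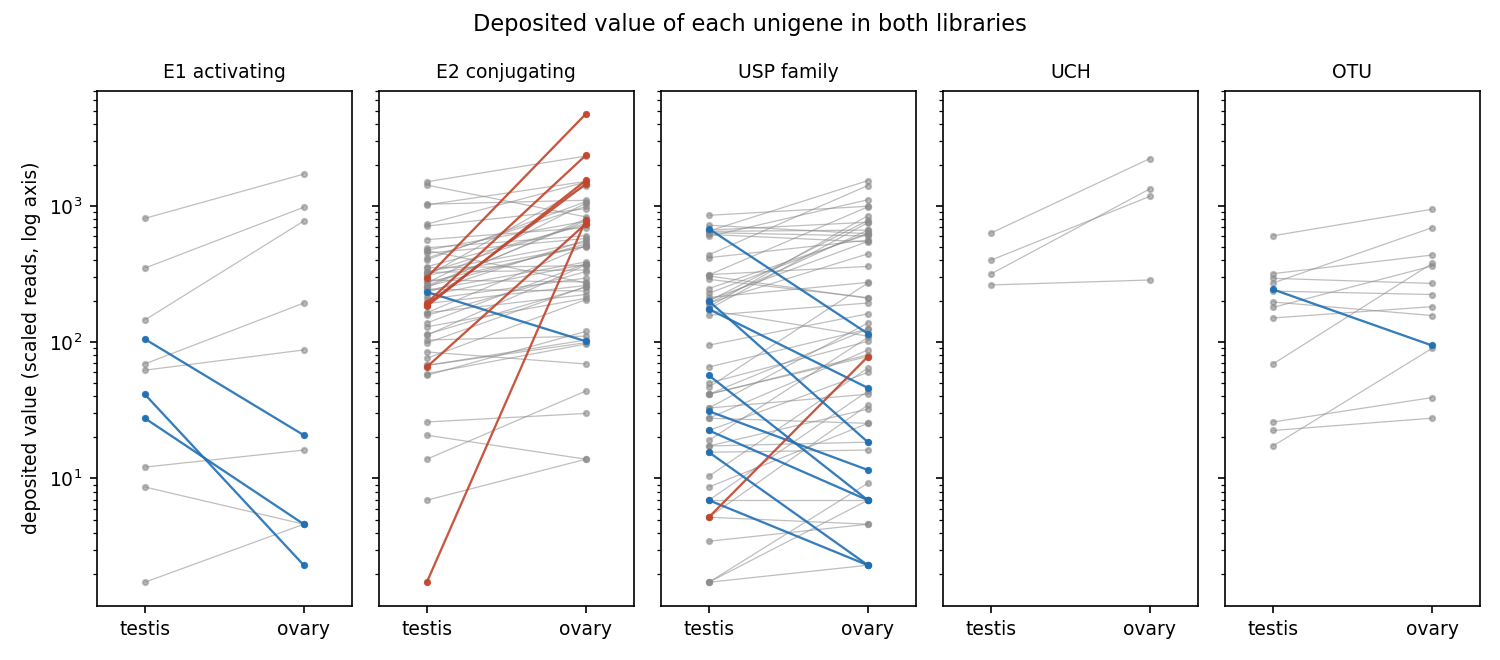
Deposited value (scaled reads, log axis) of each of the 146 unigenes in the testis and the ovary library, joined by a line, in a panel for each enzyme class. Blue lines are the 13 unigenes at least 4-fold higher in testis and red lines the 7 at least 4-fold higher in ovary, relative to the median of all unigenes. Conjugating enzymes make up 6 of the red lines, 10.3% of that class, against 11.2% of all unigenes.

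Scores went with the number that a unigene carries. All unigenes numbered up to 23679, the lower range, had a median score of -0.86, and those from 23712 on, the higher range, 1.14. The members followed in part, with -0.42 for the 70 in the lower range and 0.54 for the 76 in the higher range. All 13 members at least 4-fold higher in testis are in the higher range, where they are 17.3% of 75, against 29.1% of all unigenes there. Of the 7 higher in ovary, 6 are in the lower range, where they are 8.82% of 68, against 19.4% of all unigenes there. The remaining 1, a ube2c unigene, is in the higher range, where 1.89% of all unigenes were that much higher in ovary. Against the median of its own range, 6 members passed 4-fold toward testis, as 5.45% of all unigenes did, and 7 toward ovary, as 7.29% did. Those 6 are 2 unigenes of uba7, 2 of usp19, 1 of usp11 and 1 of usp6nl. Those 7 are 1 unigene each of ube2e2, ube2c, uba3, ube2ib, uchl1, usp16 and usp4. The usp16 unigene among them, Unigene_82096, held 1 testis and 4 ovary reads, and its interval held the median of all unigenes. Unigene_15333 of usp16, with more reads, fell just short at -1.99. What this shift with the number comes from was not tested.

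**Figure D2:**
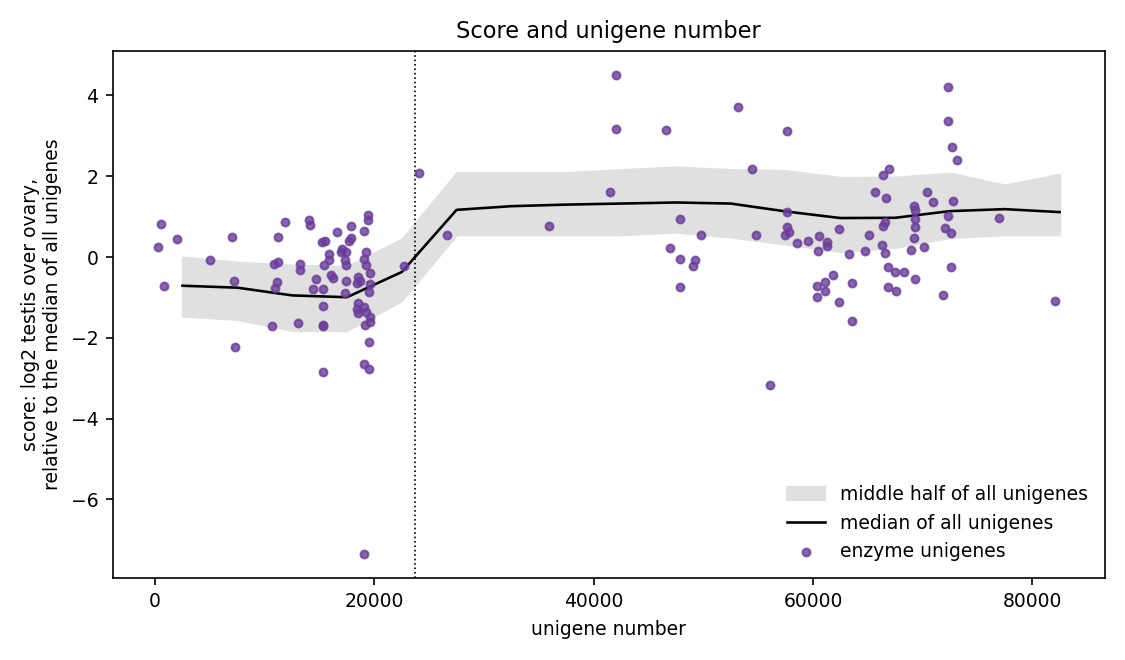
Score of each enzyme unigene (purple points) against its unigene number, with the median (line) and the middle 50% (band) of all unigenes in number ranges of 5000 that hold at least 20 unigenes. The line steps up at the dotted mark between both ranges, and the enzyme points step with it; the isolated point near -7.35 is a ube2e2 unigene and the one at -3.16 in the higher range a ube2c unigene.

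Activating enzymes, 11 unigenes of 5 symbols, had a median score of 0.39 over the 10 past the floor of 5 units. The 2 unigenes of uba1, the main ubiquitin E1, held 468 testis and 742 ovary reads and 202 testis and 424 ovary reads. Both were somewhat lower in testis, with scores of -0.25 and -0.66, although both scores were above 0 with equal total reads. For uba2, the catalytic subunit of the SUMO E1, 36 testis and 38 ovary reads gave 1.26-fold higher in testis (95% interval 0.776 to 2.04), which does not set it apart from the median.

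The unigenes of uba7, the E1 that charges the interferon-induced modifier ISG15 in mammals, leaned to testis but were scarcely read. Unigene_42005 held 24 testis reads and 1 ovary read, 31.9-fold higher in testis (95% interval 5.21 to 1313). Its neighbour Unigene_42006 held 16 testis and 2 ovary reads, 10.6-fold higher (95% interval 2.50 to 95.4). The other two uba7 unigenes held 5 testis and 2 ovary reads and 1 testis and 2 ovary reads. All 4 together held 46 testis and 7 ovary reads. For uba3, the catalytic subunit of the NEDD8 E1, the unigenes parted. Unigene_57593 held 61 testis and 9 ovary reads, 9.01-fold higher in testis (95% interval 4.45 to 20.6), whereas Unigene_63539 held 84 testis and 336 ovary reads, 3.01-fold higher in ovary (95% interval 2.36 to 3.87). With all 3 uba3 unigenes summed, 185 testis and 429 ovary reads were 1.48-fold higher in ovary (95% interval 1.24 to 1.77) relative to the median of symbol sums.

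**Figure D3:**
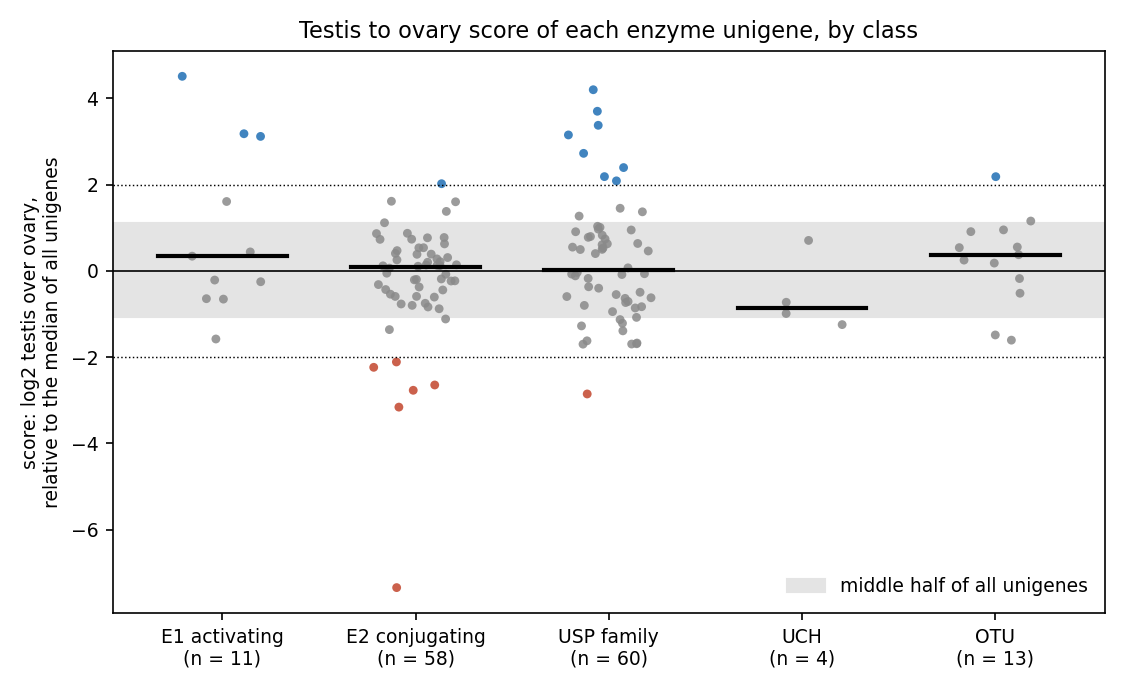
Score of each unigene (log2 testis over ovary relative to the median of all unigenes) by enzyme class, with the class median as a bar, 4-fold as dotted lines and the middle 50% of all unigenes as a grey band. Class medians lie within the band; UCH, with 4 unigenes, has the lowest at -0.86.

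Conjugating enzymes held 6 of the 7 unigenes at least 4-fold higher in ovary, at a share near that of all unigenes. The class holds 58 unigenes of 27 symbols, and its median score was 0.08. Of the 58, 6 (10.3%, against 11.2% of all unigenes) passed 4-fold toward ovary and 1 (1.72%, against 13.8%) toward testis. Against the medians of their number ranges, 3 passed toward ovary, as 7.29% of all unigenes did, and 0 toward testis, as 5.45% did.

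The E2 pair of the anaphase-promoting complex, the ligase that ends mitosis and meiosis by destroying cyclins, was higher in ovary in its most read unigenes. UBE2C starts ubiquitin chains on targets of that complex and UBE2S extends them. For ube2c, Unigene_56080 held 172 testis and 2052 ovary reads, 8.97-fold higher in ovary (95% interval 7.67 to 10.5). It is the 1 member of the higher number range past 4-fold toward ovary, with a score of -4.30 against the median of that range. The other two ube2c unigenes did not share this. Unigene_46923 held 39 testis and 45 ovary reads (score 0.21) and Unigene_10920 held 8 testis and 19 ovary reads (score -0.77). Summed, ube2c held 219 testis and 2116 ovary reads, 6.17-fold higher in ovary (95% interval 5.37 to 7.13).

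Both unigenes of ube2s were higher in ovary. Unigene_19497 held 112 testis and 1021 ovary reads, 6.85-fold higher in ovary (95% interval 5.63 to 8.41), and Unigene_19498 held 109 testis and 630 ovary reads, 4.35-fold higher (95% interval 3.54 to 5.38). The second lies just inside 4-fold with a score of -2.11. The nearest member outside it on that side is a usp40 unigene at -1.70. For ube2t, the E2 of the Fanconi anaemia pathway that repairs DNA crosslinks, the single unigene held 106 testis and 668 ovary reads, 4.74-fold higher in ovary (95% interval 3.86 to 5.87). The ube2s and ube2t unigenes are in the lower number range. Against the median of that range their scores were -1.91, -1.25 and -1.38, all short of 4-fold. The direction toward ovary held for all 4 of these unigenes of ube2c, ube2s and ube2t as deposited, against the range medians and with equal total reads. Of the 23 oocyte marker unigenes, 22 also passed 4-fold toward ovary, and their part in these differences was not tested.

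The UBE2E enzymes, a small E2 subfamily, held the widest contrast of all members. Unigene_19039 of ube2e2 held 1 testis read and 341 ovary reads, 256-fold higher in ovary (95% interval 45.7 to 10156). In the authors' deposited table its log2 fold change of testis over ovary was -8.83 and its p-value 0.0054258. It is the 1 member in the authors' ovary list and the 1 member with a deposited p-value under 0.05, where 314 of all 22634 unigenes (1.39%) have one. The next lowest deposited p-value among the members was 0.157, for ube2e1. Unigene_70372, also ube2e2, lay on the other side, with 822 testis and 360 ovary reads, 3.04-fold higher in testis (95% interval 2.68 to 3.45). Unigene_19040 held 159 testis and 220 ovary reads and a score of -0.05.

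All 3 ube2e2 unigenes together held 982 testis and 921 ovary reads. That sum had a score of 0.74 relative to the median of symbol sums, so it leaned slightly to testis although 1 of its parts had the lowest score of all members. As deposited the sum was lower in testis, at a log2 ratio of -0.32. For ube2e1, Unigene_19041 held 38 testis and 321 ovary reads, 6.35-fold higher in ovary (95% interval 4.53 to 9.14), and Unigene_68291 held 187 testis and 323 ovary reads, 1.30-fold higher (95% interval 1.08 to 1.56). The single ube2e3 unigene held 95 testis and 97 ovary reads and its interval held the median.

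The UBE2D enzymes, general E2s that serve many ligases, differed little. Their 10 unigenes of 5 symbols had scores from -0.54 to 1.12, and none was 4-fold apart. The most read, Unigene_70094 of ube2d2, held 588 testis and 656 ovary reads, 1.19-fold higher in testis (95% interval 1.06 to 1.33). Unigene_15538, also ube2d2, held 411 testis and 413 ovary reads. The highest score was that of Unigene_57667 of ube2d1a, with 49 testis and 30 ovary reads, 2.17-fold higher in testis (95% interval 1.35 to 3.54). Of the 10, 7 lay above the median. As deposited 2 of the 10 were higher in testis, where 30.7% of all unigenes were, and with equal total reads 10, where 69% were. Against the medians of their number ranges 4 lay above and 6 below.

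UBE2N and its catalytically inactive partners UBE2V1 and UBE2V2 build a chain type used in signalling and DNA repair. The partners lay on opposite sides of the median of all unigenes and of the medians of their number ranges, but not under every scaling. As deposited, Unigene_17873 and Unigene_17874 of ube2v2 were lower in testis, as ube2v1 was. With equal total reads, Unigene_61058 of ube2v1 turned toward testis. All 3 ube2v2 unigenes were higher in testis, the farthest being Unigene_65694 with 272 testis and 118 ovary reads, 3.07-fold higher (95% interval 2.46 to 3.84). Its score of 1.61 is the nearest outside 4-fold on the testis side, and ube2z, at 2.02, the nearest inside. Both ube2v1 unigenes were lower in testis, with 146 testis and 348 ovary reads in Unigene_61057, 1.79-fold higher in ovary (95% interval 1.47 to 2.19), and 80 testis and 163 ovary reads in Unigene_61058. Summed, ube2v2 held 735 testis and 526 ovary reads and ube2v1 226 testis and 511 ovary reads. The unigenes of ube2na and ube2nb held 239 testis and 430 ovary reads for ube2na, and for ube2nb 134 testis and 243 ovary reads in Unigene_16008 and 111 testis and 113 ovary reads in Unigene_17682.

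The E2s of protein quality control at the endoplasmic reticulum, ube2g1a, ube2g1b, ube2g2 and ube2j1, had 9 unigenes with scores from -0.88 to 0.86. Of the 9, 5 lay above the median of all unigenes, but 2 above the medians of their number ranges. The 3 ube2g1b unigenes together held 306 testis and 640 ovary reads, 1.34-fold higher in ovary (95% interval 1.16 to 1.54), and the 2 ube2g2 unigenes 331 testis and 338 ovary reads. For ube2ib, the E2 of SUMO known as UBC9, the 4 unigenes held 1419 testis and 1871 ovary reads in all. Of these, Unigene_17069 held 869 testis and 1007 ovary reads (score 0.20), and Unigene_62392 held 157 testis and 454 ovary reads (score -1.12). For ube2b, a RAD6-type E2 of chromatin and DNA damage tolerance, the single unigene held 285 testis and 262 ovary reads, 1.45-fold higher in testis (95% interval 1.22 to 1.72).

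Among the remaining E2s, ube2z was the 1 conjugating enzyme past 4-fold toward testis. UBE2Z is charged by UBA6 rather than UBA1. Its Unigene_66378 held 135 testis and 44 ovary reads, 4.08-fold higher in testis (95% interval 2.88 to 5.87), and Unigene_66377 188 testis and 147 ovary reads, 1.70-fold higher (95% interval 1.36 to 2.13). Against the median of their number range these 2 unigenes scored 0.88 and -0.37. The 3 unigenes of ube2l3a, an E2 that passes ubiquitin to a cysteine of its ligase, held 836 testis and 1333 ovary reads together, close to the median of symbol sums. The ube2h unigene held 95 testis and 221 ovary reads, 1.75-fold higher in ovary (95% interval 1.37 to 2.25), and that of ube2r2, which works with cullin ligases, 119 testis and 128 ovary reads.

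The ubiquitin-specific proteases, 60 unigenes of 22 symbols, split evenly, with 30 above the median and 30 below. Of the 58 past the floor, 8 (13.8%, against 13.8% of all unigenes) passed 4-fold toward testis and 1 (1.72%, against 11.2%) toward ovary. The class median of -0.05 over these 58 was 0.02 over all 60, so it has no stable sign.

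The widest well-read contrast toward testis was in usp19, a protease anchored at the endoplasmic reticulum. Unigene_72351 held 393 testis and 50 ovary reads, 10.5-fold higher in testis (95% interval 7.77 to 14.3), and the adjacent Unigene_72352 held 116 testis and 8 ovary reads, 19.3-fold higher (95% interval 9.47 to 45.7). Both remained past 4-fold against the median of their number range, with scores of 2.24 and 3.06, and as deposited. The remaining usp19 unigene held 2 testis and 2 ovary reads. The sum of 511 testis and 60 ovary reads gave usp19 the highest score of all 65 symbols.

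For usp7, which acts on the p53 pathway and on chromatin proteins, all 3 unigenes were higher in testis. Unigene_19441 held 417 testis and 271 ovary reads, 2.05-fold higher (95% interval 1.75 to 2.39), and Unigene_19442 held 368 testis and 261 ovary reads, 1.88-fold higher (95% interval 1.60 to 2.21). Both are in the lower number range, where the median of all unigenes leans to ovary, and scored 1.89 and 1.77 against it. Unigene_72642, marked as a fragment, held 101 testis and 20 ovary reads, 6.72-fold higher (95% interval 4.13 to 11.5). As deposited, the sum of 886 testis and 552 ovary reads had a log2 ratio of 0.27.

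The other symbols with unigenes past 4-fold toward testis rested on few reads. The 4 unigenes of usp11 together held 30 testis and 8 ovary reads, and 3 of them passed 4-fold. The 3 unigenes of usp6nl, the symbol that is no protease, held 52 testis and 11 ovary reads together. The highest usp6nl unigene, Unigene_53125, held 33 testis and 3 ovary reads, 14.6-fold higher in testis (95% interval 4.59 to 74.6). Without usp6nl, 11 members were at least 4-fold higher in testis.

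Other well-read proteases leaned to testis by less than 4-fold. Both unigenes of usp1, which takes ubiquitin off DNA repair proteins, were higher in testis, with 167 testis and 92 ovary reads in Unigene_69216, 2.41-fold higher (95% interval 1.86 to 3.15), and 123 testis and 119 ovary reads in Unigene_69215. Both unigenes of usp10 were higher in testis too, with 358 testis and 247 ovary reads in sum. The single unigenes of usp25, usp5, usp8 and usp47 held 357 testis and 236 ovary, 384 testis and 329 ovary, 376 testis and 288 ovary, and 493 testis and 431 ovary reads. USP5 takes apart free ubiquitin chains and USP8 acts on cargo at endosomes. Their scores ranged from 0.61 in usp47 to 1.01 in usp25, and none of these 4 intervals held the median. As deposited, usp8 had a log2 ratio of -0.03, usp5 of -0.19 and usp47 of -0.22. Unigene_16617 of usp10 (-0.20) and Unigene_69215 of usp1 (-0.37) were lower in testis as deposited too. The lean of these unigenes toward testis is thus not seen as deposited. It is seen relative to the other unigenes and with equal total reads. Against the median of the number range, usp47 (-0.53), usp25 (-0.13) and Unigene_69215 of usp1 (-0.68) leaned to ovary. The remaining unigenes of these symbols stayed on the testis side.

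A group of 4 symbols known for removing ubiquitin from histones leaned the other way. They were grouped with their values known, and usp7, which acts on chromatin proteins too, is not among them and lay above the median. Nor is mysm1, a histone H2A protease outside the name rule, whose unigenes scored 2.09, 1.55, 0.67 and -0.53. Of the 14 unigenes of usp3, usp16, usp22 and usp49, 7 of them of usp16 alone, 13 lay below the median. The median score of the 14 was -0.94. All 14 were lower in testis as deposited, where 68.7% of all unigenes were, and 8 with equal total reads, where 31% were. Against the medians of their number ranges 11 were lower, where 50% of all unigenes were. Unigene_18473 of usp49 held 105 testis and 368 ovary reads, 2.64-fold higher in ovary (95% interval 2.12 to 3.31). For usp22, a subunit of the SAGA complex, Unigene_18399 held 101 testis and 327 ovary reads, 2.43-fold higher in ovary (95% interval 1.94 to 3.07), and Unigene_18398 132 testis and 274 ovary reads. The 2 usp3 unigenes held 118 testis and 238 ovary and 112 testis and 193 ovary reads. The 7 usp16 unigenes held 70 testis and 204 ovary reads in all, 1.86-fold higher in ovary (95% interval 1.41 to 2.48), and Unigene_15333, with 3 testis and 34 ovary reads, was the 1 USP unigene past 4-fold toward ovary.

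Proteases that work on the proteasome itself also lay below the median, in all 3 of their unigenes and under every scaling tried. Of all unigenes, 68.7% were lower in testis as deposited, 31% with equal total reads and 50% against the medians of their number ranges. With equal total reads Unigene_67601 of usp14 was only slightly lower in testis. The group was chosen with earlier results of these data known. For usp14, Unigene_67601 held 180 testis and 427 ovary reads, 1.78-fold higher in ovary (95% interval 1.50 to 2.13), and Unigene_19104 held 27 testis and 118 ovary reads, 3.29-fold higher (95% interval 2.15 to 5.19). The single uchl5 unigene held 183 testis and 579 ovary reads, 2.38-fold higher in ovary (95% interval 2.01 to 2.82). Both unigenes of usp39, a splicing protein of the family that lacks protease activity, were lower in testis, with 143 testis and 269 ovary reads in Unigene_18547 and 116 testis and 339 ovary reads in Unigene_18548. For usp37, a cell cycle protease, the single unigene held 378 testis and 665 ovary reads, 1.32-fold higher in ovary (95% interval 1.16 to 1.50), and the 3 of usp4 held 606 testis and 1143 ovary reads together. Against the median of their number range, Unigene_18547 of usp39 (0.36) and the usp37 unigene (0.46) turned toward testis. With equal total reads they did so too.

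The remaining UCH enzymes are uchl1 and uchl3. UCHL1 is abundant in neurons and is used as a marker of spermatogonia in mammals. Here both uchl1 unigenes were lower in testis. Unigene_60379 held 365 testis and 965 ovary reads, 1.99-fold higher in ovary (95% interval 1.76 to 2.25), and Unigene_60378 held 231 testis and 510 ovary reads, 1.66-fold higher (95% interval 1.42 to 1.95). Both are in the higher number range, where their scores against the range median were -2.13 and -1.87. With equal total reads, Unigene_60378 turned slightly toward testis. The 1 unigene of uchl3 was higher in testis, with 152 testis and 124 ovary reads, 1.63-fold (95% interval 1.28 to 2.08), but lower as deposited.

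The OTU proteases, 13 unigenes of 8 symbols, had a median score of 0.37, with 9 above the median. Against the medians of their number ranges the class had a median of 0.01, with 7 above and 6 below. As deposited 4 of the 13 were higher in testis, where 30.7% of all unigenes were. The 1 unigene past 4-fold was Unigene_66954 of otud5b, with 141 testis and 41 ovary reads, 4.57-fold higher in testis (95% interval 3.21 to 6.65). The related otud5a held 137 testis and 97 ovary reads, 1.88-fold higher in testis (95% interval 1.44 to 2.46). Both otud3 unigenes were higher in testis, with 284 testis and 185 ovary reads in sum, but scored -0.19 and 0.01 against the median of their number range. The paralogues of otub1, which blocks UBE2N besides cutting chains, lay on opposite sides of the median of all unigenes, but on the same side under other scalings, both toward ovary as deposited and both toward testis with equal total reads and against the number range. The otub1a unigene held 184 testis and 189 ovary reads, 1.29-fold higher in testis (95% interval 1.05 to 1.59), and the otub1b unigene 157 testis and 300 ovary reads, 1.44-fold higher in ovary (95% interval 1.18 to 1.75). The otud6b unigene held 104 testis and 157 ovary reads and that of otud1 87 testis and 79 ovary reads.

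Unigenes that carry the same symbol often differed from each other. Of the 65 symbols, 42 had several unigenes, 123 in all, and in 25 of these (59.5%, against 45.5% of the 6023 such symbols in the whole table) the lowest and the highest unigene had intervals that did not overlap. With 99% intervals this held for 12 of the 42, a lower share than the 34% of the 6023. The width of an interval depends on the reads, and members hold more reads than unigenes in general. What this contributes to either share was not tested. The spread between unigenes of one symbol was narrower than usual in size, with a median gap of 1.18 in score against 1.83 over all symbols. In 19 of the 42 the unigenes lay on both sides of the median. The same share over all symbols is not given, so this count does not set the members apart. Carp carry duplicated genes, and a gene may also be present in pieces, so how reads were divided among near-identical unigenes is uncertain. Whether these are paralogues, isoforms or pieces was not tested.

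**Figure D4:**
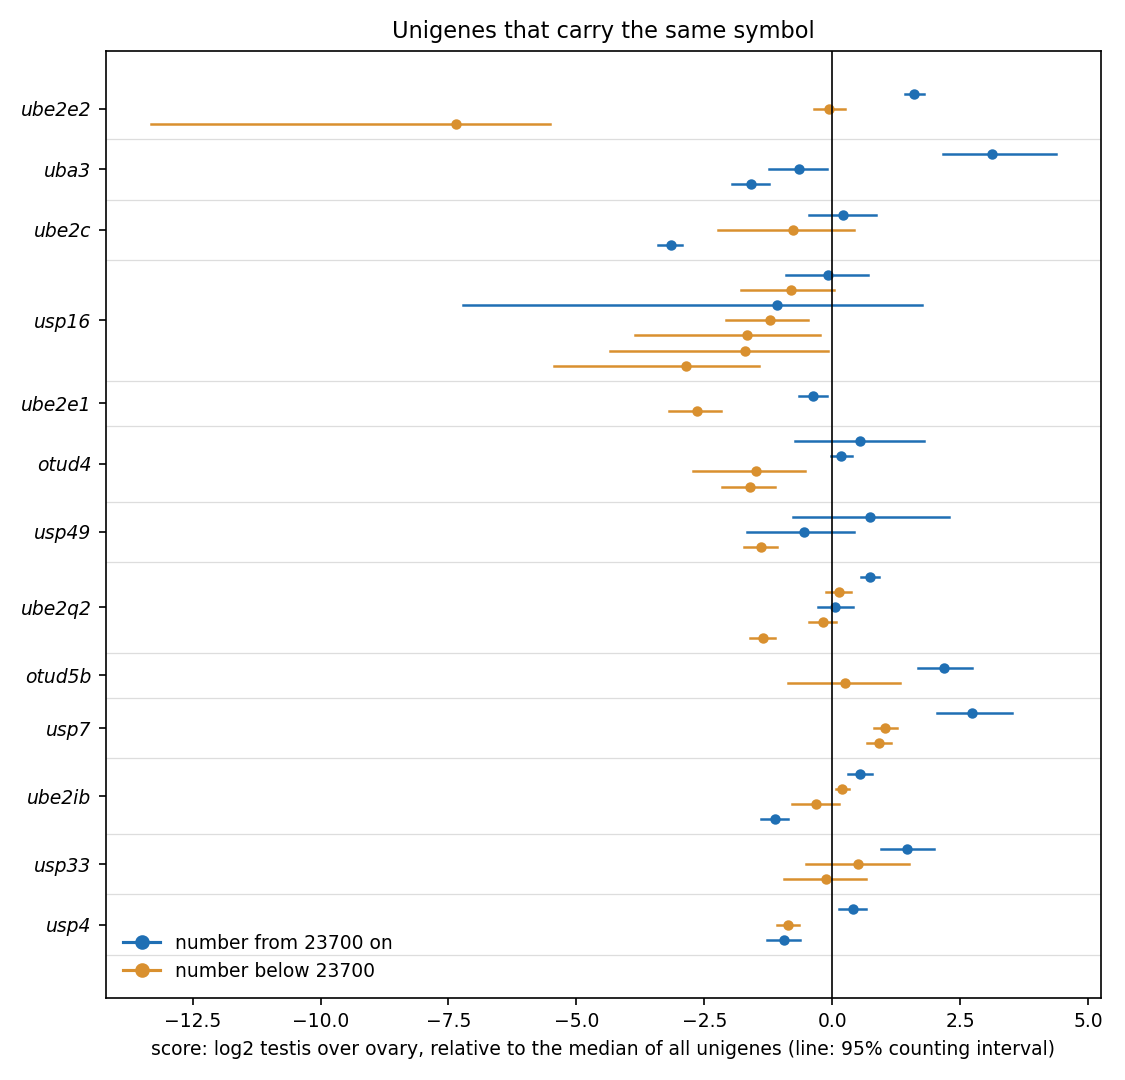
Score (point) and exact 95% counting interval (line) of every unigene of the 13 symbols with the widest gaps among those whose lowest and highest intervals do not overlap. Colour gives the number range; in ube2e2, ube2e1, otud4, usp49, otud5b, usp7 and usp33 the blue points (higher range) lie to the right of the orange ones (lower range), in ube2c, ube2ib and usp4 the lowest point is blue, and uba3 has blue points only.

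The number range moved with these contrasts. In 29 symbols with unigenes in both ranges, the summed ratio leaned more to testis in the higher range for 27 (93.1%), against 95.8% of the 4490 such symbols in the whole table, and the median difference was 1.11 in log2 ratio, against 1.67 there. The contrasts within uba3 are not of this kind, since its 3 unigenes are all in the higher range. Nor is that of ube2c, where the unigene lowest in testis, Unigene_56080, is in the higher range. Unigene_19039 and Unigene_19040 of ube2e2 are both in the lower range and adjacent in number, yet their scores were -7.35 and -0.05.

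The division of a symbol's reads among its unigenes shows the same contrasts without the scaling between libraries. Unigene_70372 held 83.7% of the testis reads of ube2e2 (95% interval 81.2% to 86.0%) and 39.1% of its ovary reads (95% interval 35.9% to 42.3%). Unigene_19039 held 0.102% of the testis reads (95% interval 0.00258% to 0.566%) and 37.0% of the ovary reads (95% interval 33.9% to 40.2%). In uba3, Unigene_57593 held 33.0% of the testis and 2.10% of the ovary reads. In ube2e1, Unigene_68291 held 83.1% of the testis and 50.2% of the ovary reads. In ube2q2, Unigene_72049 held 43.1% of the testis and 25.2% of the ovary reads, whereas Unigene_19260 held 12.8% of the testis and 32.0% of the ovary reads. In usp7 the 2 adjacent unigenes kept similar shares, with 47.1% of the testis and 49.1% of the ovary reads in Unigene_19441.

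**Figure D5:**
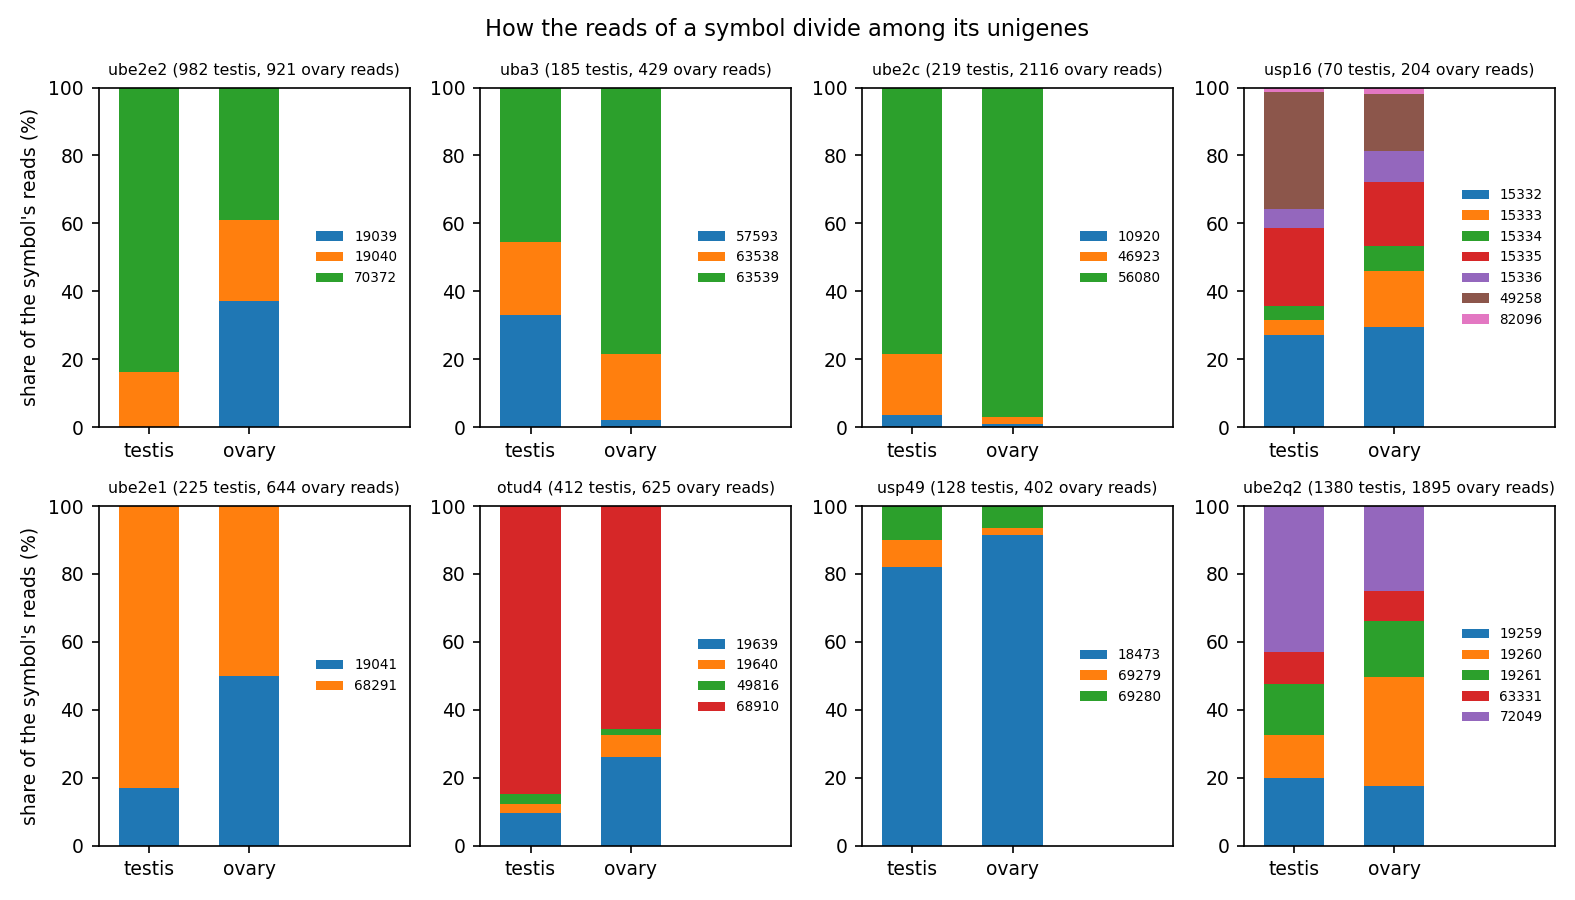
Share of a symbol's reads held by each of its unigenes (stacked, numbers in the legend) in the testis (left bar) and the ovary library (right bar), for the 8 symbols with the widest gaps among those whose lowest and highest intervals do not overlap. In ube2e2 the share of Unigene_19039 is 0.102% in testis and 37.0% in ovary, and that of Unigene_57593 in uba3 is 33.0% in testis and 2.10% in ovary.

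Other genes of the pathway were taken from a list of 58 genes outside the name rule. They matched 131 unigenes, of which 125 passed the floor, and 21 of these passed 4-fold toward testis (against 13.8% of all unigenes) and 13 toward ovary (against 11.2%). Against the median of the number range, 4 passed toward testis (against 5.45%) and 6 toward ovary (against 7.29%). Their median score over all 131 was 0.49. Among ubiquitin and its relatives, 7 of 27 unigenes passed 4-fold toward ovary, but 1 did so against the median of the number range. The 7 include every sumo3b unigene, namely Unigene_17067 (154 testis and 1070 ovary reads), Unigene_64666 (153 and 1059) and Unigene_17068 (28 and 226). They also include Unigene_9814 of sumo2 (98 testis and 763 ovary reads). The other sumo2 unigenes did not share this, with scores of -0.35, 0.16, 0.46, 0.47 and 0.71. The modifier isg15, the partner of uba7, had unigenes at both ends, with 50 testis and 4 ovary reads in Unigene_51106 and 4 testis and 40 ovary reads in Unigene_12951. GMP synthetase, gmps, a known partner of USP7, held 246 testis and 39 ovary reads in Unigene_69659 and 100 testis and 20 ovary reads in Unigene_69658. Proteases outside the rule included cylda, which cuts chains of signalling complexes, with 37 testis and 4 ovary reads in Unigene_70649, and vcpip1 with 37 testis and 5 ovary reads in Unigene_59289. The inactive E2 relative aktip was higher in ovary, with 34 testis and 327 ovary reads in Unigene_16557.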

How the data were processed

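RNA sequencing of 1 testis and 1 ovary library was deposited as an expression table and a list for each tissue. The aligner is not given in the sources used here, nor are the counter and the build. Per the file headers, each unigene has a value per library. The deposited values are a signal that runs in steps of 1.73 units in testis and 2.31 in ovary, as reads scaled by 1 constant per library would. How these constants were set was not tested. Each step was taken as 1 read; whether it is a read or a read pair was not tested. All values of the 146 members were whole within 0.01 read. The deposited log2 fold change is column B over column A. How the authors computed the deposited p-value is not stated in those sources. No count test was run, as each tissue has a single library.

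For the median of all unigenes, 147 found in the testis list alone, a choice of the authors that favours testis, were added to the 22487 of the table. Scores used a pseudocount of 1 unit, which understates differences of low unigenes. Ratios carry exact Clopper-Pearson 95% intervals. Their simulated check drew reads with counting error only and covered unigenes with at least 50 reads. It cannot speak for less read unigenes or for variation between libraries or fish. Sums by symbol are relative to the median of symbol sums, a log2 ratio of -1.06. Of the 65 symbols, 27 matched the RefSeq annotation of ASM1834038v1, used for names only. The members, lists, number ranges and role groups were chosen with earlier results of these data known. Named unigenes were, in each class, the 4 highest, the 4 lowest and the 3 most read; those in an authors' list; the 12 symbols with the widest gaps; a list of well-known enzymes; and those nearest 4-fold. Others of the same role groups were named after their values were seen. Alternatives were pseudocounts of 0.1 and 10, other floors and folds, other scalings, sums by symbol and the table alone. Analyses used Python 3.11.15, pandas 2.3.3, numpy 2.4.6, scipy 1.17.1 and matplotlib 3.10.9.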

Additional observations from a re-analysis of the deposited data

How the results depend on the processing

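No paired analysis was possible because there is 1 library per tissue. As deposited, testis was at least 4-fold higher for 7 members and ovary for 20, and the median score was -0.72 for all members, -0.74 for conjugating enzymes, -1.69 for UCH and -0.88 for USP. With equal total reads, 20 members passed 4-fold toward testis and 4 toward ovary, with medians of 0.86 for all members, 0.84 for conjugating enzymes, 1.12 for OTU and 0.70 for USP. Against the median of the number range, 6 members passed 4-fold toward testis, and the median was -0.39 for conjugating enzymes and 0.01 for OTU. With unigenes of one symbol summed, 5 of 65 symbols passed 4-fold toward testis and 3 toward ovary, with medians of 0.36 for all and 0.66 for USP. A pseudocount of 10 left 6 in testis. At 2-fold, 24 members counted toward testis and 23 toward ovary, and at 8-fold 7 toward testis and 2 toward ovary. No share over all unigenes is given for equal total reads, summed symbols, the pseudocount of 10 or these other folds. Those counts show how the setting moves the result and do not set the members apart. With 99% intervals, 12 symbols had unigenes whose intervals did not overlap, against 25. Summing by symbol reversed 2 unigenes, Unigene_57593 of uba3 to -0.56 and Unigene_19039 of ube2e2 to 0.74, since other unigenes hold most of their reads. The trimmed mean, the table alone, a pseudocount of 0.1, no floor, a floor of 20 units and leaving out usp6nl, an alternative added after seeing the data, moved none of these counts by over 1.5 times. Depth limits members under 20 reads, 19 of 146.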

Other observations

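Adjacent numbers sometimes joined different enzymes. Unigene_19039 and Unigene_19040 of ube2e2 are followed in number by Unigene_19041 of ube2e1, and these 3 together held 198 testis and 882 ovary reads, a score of -1.74. Pairs of one symbol with adjacent numbers had a median gap of 0.74 in score among members (30 pairs) and 0.65 among all symbols (4300 pairs). Other pairs of one symbol had 1.03 among members (136 pairs) and 1.31 among all symbols (26799 pairs). Pairs share unigenes, so these are descriptions.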
